A study of Equus caballus with 14 samples.

Results

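Of 30371 genes counted in biopsies of the mare's corpus luteum, 96 are described here. They were chosen by their read counts in 4 libraries, those of the 2 glands labelled pregnant on both days, Emma and Cornelia. Each gene had 10 or more counts in both pregnant day 13 libraries. Its log2(CPM + 0.1) was higher at day 13 than at day 11 by at least 2, which is 4-fold, in each of these glands. CPM is a gene's read count scaled to a common library size by that library's own total. 99 genes met this rule, and 3 of them were set aside and are not described as part of the list. The change in Emma and Cornelia is therefore a description, and the 10 libraries of the other glands carry the comparisons below.

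The study biopsied the gland through the vaginal wall in healthy, cycling light breed mares at day 11 or day 13 after ovulation, without any drug treatment named in the labels. There were 4 non-pregnant libraries at day 11, 4 non-pregnant at day 13, 4 pregnant at day 11 and 2 pregnant at day 13, from 6 named mares and 8 glands, with 8 mares enrolled. The labels state no ages. Kiwi, Kate2 and Emma2 are glands labelled non-pregnant on both days, and Roanie gave a non-pregnant library at day 11 alone. The gland Kate is labelled pregnant at day 11 and non-pregnant at day 13, and Gisela gave a pregnant library at day 11 alone. Kate and Kate2 are glands of the same mare, as are Emma and Emma2. Emma2 was biopsied on the same 2 dates as Cornelia, so it shares a mare with 1 of the glands used in the choice and dates with the other.

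The corpus luteum forms from the ovulated follicle and secretes the progesterone that keeps the uterus ready for an embryo. In a mare that is not pregnant, prostaglandin released by the uterus ends the gland's secretion late in the cycle, with invasion by immune cells and remodelling of its vessels and matrix. In early pregnancy that signal is held back and the gland persists. The biopsies come from the days around this decision, and the stated aim of the study was to find genes with a stable level across status and day. Genes carry Ensembl identifiers in the deposited counts, and 0 of these could be paired with a symbol here. They are therefore given by identifier and their functions are not described. Markers of luteal, immune, vascular or epithelial cells could not be looked up for the same reason. In bulk tissue more cells of a type and more RNA per cell cannot be told apart. All day 13 tissue was taken 2 days after a biopsy of the same gland, so day and earlier biopsy cannot be told apart either.

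Library totals ran from 20182039 counts in Kiwi day 13 to 32186736 in Emma day 13, and 1 count was worth 0.0311 to 0.0495 CPM. Gisela day 11 and Cornelia day 13 had the most genes at 1 CPM or more, 13303 and 13155, against 12605 to 12961 in the other 12 libraries. Both libraries are also high for many of the 96 genes, and whether the wider set of detected genes has a part in that was not tested.

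In the glands used for the choice, the 96 genes were scarce at day 11. They summed to 36.2 CPM in Emma and 22.6 CPM in Cornelia at day 11, and to 433.0 and 774.6 CPM at day 13. At day 11, 37 of the genes had 0 counts in Emma and 45 in Cornelia, and 29 had 0 counts in both. The median change was 3.02 in Emma, with a range from 2.04 to 7.66, and 4.44 in Cornelia, with a range from 2.05 to 7.99. The change was larger in Cornelia for 80 of the 96 genes. Among genes with enough counts, the fold was met in Emma by 119 and in Cornelia by 287. The members nearest the bound, ENSECAG00000001165 and ENSECAG00000028424, both changed by 2.04 in Emma, from 0 to 10 counts, and by 3.22 and 2.37 in Cornelia. The nearest gene outside, ENSECAG00000002918, changed by 2.14 in Emma and 1.97 in Cornelia. These genes at the bound were picked by their values.

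Most of the list is of low abundance. The mean over both pregnant day 13 libraries had a median of 2.22 CPM over the 96 genes, with the lowest at 0.363 CPM and the highest at 190.2 CPM. 11 genes had a mean of 10 CPM or more there, 41 had 2 to under 10 CPM and 44 were under 2 CPM. Values under about 3 counts, or 0.0932 to 0.149 CPM by library, carry little information on a single gene.

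**Figure D1:**
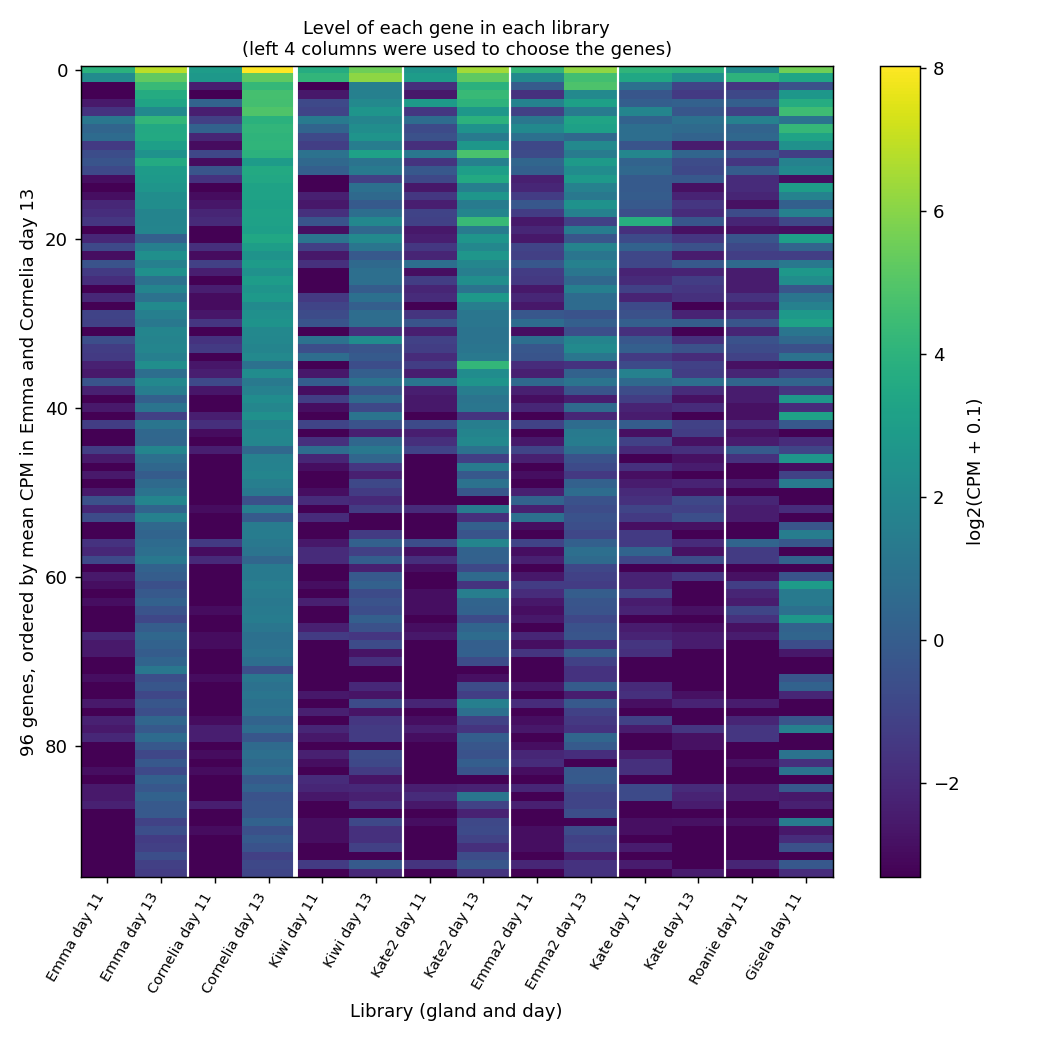
Level of each of the 96 genes (rows, ordered by mean CPM in Emma and Cornelia day 13) in each of the 14 libraries (columns), as log2(CPM + 0.1) in colour. The first 4 columns chose the genes; the day 13 columns of Kiwi, Kate2 and Emma2 are lighter than their day 11 columns, Kate day 13 is as dark as the day 11 columns, and Gisela day 11 is light for part of the rows.

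The genes were also more abundant at day 13 in 3 of the 4 other glands sampled on both days. They summed to 55.9 CPM at day 11 and 225.9 CPM at day 13 in Kiwi, to 39.4 and 445.8 CPM in Kate2, and to 56.1 and 272.5 CPM in Emma2. In the gland Kate the sum was 86.3 CPM at day 11 and 44.4 CPM at day 13. The most abundant member, ENSECAG00000021775, made up 10.0% to 41.8% of these sums over the 14 libraries. Without it the sums were 43.0 and 180.3 CPM in Kiwi, 33.4 and 356.5 CPM in Kate2, 38.3 and 202.0 CPM in Emma2, and 69.2 and 28.2 CPM in Kate. The direction in each gland is thus not set by that gene.

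Gene by gene, the median change over all 96 was 1.82 in Kiwi, 3.16 in Kate2, 2.08 in Emma2 and -0.58 in Kate. Over the 14057 genes with 10 or more counts in both pregnant day 13 libraries, the medians were 0.07, 0.00, -0.10 and 0.00. With a pseudocount of 1 CPM the members' medians were 0.52, 1.19, 0.67 and -0.11, since that offset exceeds the day 11 level of most of them. With counts under 3 set to 3 in place of a pseudocount, an alternative chosen after seeing the data, they were 1.74, 3.35, 2.22 and -0.13.

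The bound of 2 was met by 40 of the 96 genes in Kiwi, 74 in Kate2, 49 in Emma2 and 0 in Kate. Of the 14057 genes, 0.562% met it in Kiwi, 1.08% in Kate2, 0.498% in Emma2 and 0.0498% in Kate. The members made up 50.6% of the genes at the bound in Kiwi, 48.7% in Kate2 and 70.0% in Emma2, and those at the bound were 41.7%, 77.1% and 51.0% of the list. Low abundance makes large changes more frequent, so the genes with a mean under 1 CPM over these 8 libraries were also read apart. Among 62 such members the bound was met by 19 in Kiwi, 46 in Kate2 and 28 in Emma2. Among 1123 such genes outside the list it was met by 2.05%, 2.49% and 1.25%.

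All 3 of Kiwi, Kate2 and Emma2 met the bound in 21 of the 96 genes, against 0.157% of the 14057 genes, or 22 genes. A further 38 members met it in 2 of these glands, 24 in 1 and 13 in none. The change was above 0 in all 3 glands for 78 members, against 10.1% of the 14057 genes. By abundance, the bound was met in all 3 glands by 5 of the 11 members at 10 CPM or more, 15 of the 41 at 2 to under 10 CPM and 1 of the 44 under 2 CPM. In that last class the medians were 1.31 in Kiwi, 2.64 in Kate2 and 1.74 in Emma2, against 2.69, 3.61 and 2.15 in the most abundant class.

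**Figure D2:**
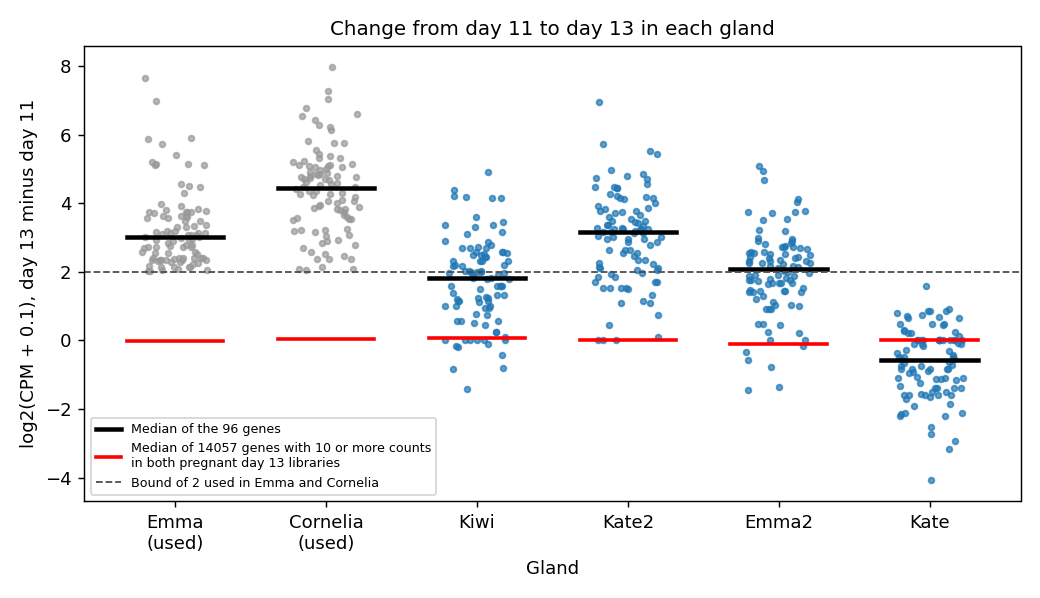
Change in log2(CPM + 0.1) from day 11 to day 13 (vertical axis) in each gland sampled on both days; each point is 1 of the 96 genes, grey in the glands that chose them, with the median of the list in black and of 14057 genes in red. The medians of the list are 1.82, 3.16 and 2.08 in Kiwi, Kate2 and Emma2, and -0.58 in Kate.

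By label, the 3 day 13 libraries of Kiwi, Kate2 and Emma2 all lay above the 4 non-pregnant day 11 libraries in 62 of the 96 genes, and all below in 0. The share above was 1.32% of the 14057 genes and the share below 1.39%. With Kate day 13, the fourth non-pregnant day 13 library, the groups were apart in 15 of the 96, against 0.484%. Kate day 13 was lower than each of the other 3 in 77 of the 96, against 29.5%.

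The day effect was tested in libraries that had no part in the choice, with each gland as its own block. In the 4 glands Kiwi, Kate2, Emma2 and Kate, 36 of the 96 genes had enough counts to be tested among 14143 genes. edgeR's quasi-likelihood test called 0 of them at an adjusted p of 0.05, and 0% of all genes tested, with a smallest adjusted p of 0.677 among the members. At an unadjusted p under 0.05 there were 19 members higher at day 13 and 0 lower, beside 2.38% of all genes tested that were higher. A gene can pass the filter through the libraries in which it is high, so the fit was also run with no filter. All 96 members were then in it: 0 were called, 64 were higher at an unadjusted p under 0.05 and 0 were lower, beside 2.21% of 21285 genes higher. DESeq2 called 2 members, both higher, beside 0.191% of all genes called higher, and limma with voom 0.

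These counts rest on single glands. Each fit was filtered anew, so the members tested differ. Without Kate, the number of members higher at an unadjusted p under 0.05 was 46 of 50 tested, in place of 19 of 36. Without Kate2 it was 8 of 38 and without Emma2 it was 9 of 37. The share of all genes tested moved the other way, from 2.38% to 2.01% without Kate, 2.8% without Kate2 and 3.54% without Emma2.

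In Kiwi, Kate2 and Emma2 alone, the 3 non-pregnant glands, 50 of the 96 genes were tested among 14298. edgeR again called 0, and 0% of all genes, with a smallest adjusted p of 0.0821, which was also the smallest of all genes tested. At an unadjusted p under 0.05, 46 members were higher and 0 lower, beside 2.01% of all genes. With no filter, 10 of the 96 members were called higher, beside 0.0528% of 20827 genes, which is 11 genes. In that fit 82 members were higher at an unadjusted p under 0.05, beside 1.87%. DESeq2 called 34 members, all higher, beside 0.329% of all genes called higher, or 47 genes, and limma with voom called 0. Without Kiwi, 2 glands were left and 69 members were tested. Of these edgeR called 22, all higher, beside 0.18% of 14429 genes, or 26 genes. The list has no single p-value here, because its members were chosen with earlier results of these data known.

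ENSECAG00000021775 was the most abundant member. In the glands not used for the choice it stood at 12.9 CPM at day 11 and 45.6 CPM at day 13 in Kiwi, 6.01 and 89.3 CPM in Kate2, 17.8 and 70.5 CPM in Emma2, and 17.0 and 16.1 CPM in Kate. Roanie held 4.46 CPM and Gisela 48.1 CPM at day 11. In the glands used for the choice it was 15.2 and 118 CPM in Emma, and 7.61 and 262.5 CPM in Cornelia. The 3 day 13 values outside Kate were above every day 11 value but that of Gisela, which exceeded Kiwi day 13. In the 3 non-pregnant glands the gene was higher at day 13 by 2.55 ± 0.42 (SE) on the log2 scale, and edgeR gave an adjusted p of 0.498. Over the alternatives that adjusted p ran from 0.0106 to 0.998, with DESeq2 lowest.

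ENSECAG00000009742 was the next most abundant at day 13 in Emma and Cornelia. Its values were 17.9 and 69.9 CPM in Kiwi, 7.70 and 36.8 CPM in Kate2, 4.12 and 24.4 CPM in Emma2, and 10.9 and 4.90 CPM in Kate. Roanie held 15.9 CPM and Gisela 10.3 CPM. Emma went from 4.42 to 38.1 CPM and Cornelia from 6.51 to 37.7 CPM. Each day 13 library but Kate's was above every day 11 library, and Gisela was within the range of the other day 11 libraries. Over the 3 non-pregnant glands the difference was 2.26 ± 0.17 (SE) on the log2 scale. Its adjusted p was 0.0821 in edgeR, with a range from 4.98e-24 to 1 over the alternatives.

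ENSECAG00000039058 went from near 0 to among the higher levels of the list. It had 0 CPM at day 11 and 2.92 CPM at day 13 in Kiwi, 0.192 and 15.3 CPM in Kate2, 0.852 and 29.0 CPM in Emma2, and 1.71 and 0.405 CPM in Kate. Roanie held 0.25 CPM and Gisela 0.607 CPM at day 11. Emma went from 0 to 20.2 CPM and Cornelia from 0.0948 to 18.9 CPM. Every day 13 library but Kate's was above every day 11 library, and Gisela was within the range of the other day 11 libraries. The log2 fold change in the 3 non-pregnant glands was 5.74 ± 0.38 (SE). Its adjusted p was 0.0821 in edgeR, with a range from 3e-08 to 0.893.

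The 2 members of at least 1 CPM with the smallest p over all 4 glands were higher at day 13 in Kate too. A ranking that includes Kate favours such members. In Kate, ENSECAG00000010028 went from 11 to 20 counts and ENSECAG00000014320 only from 24 to 26. ENSECAG00000010028 stood at 0.199 and 1.39 CPM in Kiwi, 1.60 and 3.56 CPM in Kate2, 0.75 and 3.08 CPM in Emma2, and 0.438 and 0.809 CPM in Kate. Roanie held 1.42 CPM and Gisela 2.23 CPM, while Emma went from 0.642 to 3.01 CPM and Cornelia from 0.348 to 7.44 CPM. It was higher at day 13 in all 6 glands, but the groups overlapped. At day 11 Gisela, Roanie and Kate2 were each above Kiwi day 13 and Kate day 13. Over the 4 glands it was higher at day 13 by 1.67 ± 0.35 (SE) on the log2 scale. The adjusted p was 0.677 in edgeR, with a range from 0.061 to 1. ENSECAG00000014320 was at 0.464 and 4.01 CPM in Kiwi, 7.22 and 16.2 CPM in Kate2, 3.14 and 8.72 CPM in Emma2, and 0.957 and 1.05 CPM in Kate. Roanie held 1.001 CPM and Gisela 13.0 CPM, while Emma went from 0.0713 to 9.88 CPM and Cornelia from 1.14 to 25.2 CPM. The groups overlapped, with Gisela above 3 of the 4 non-pregnant day 13 libraries and Kate2 day 11 above Kiwi day 13 and Kate day 13. The difference over the 4 glands was 1.46 ± 0.37 (SE) on the log2 scale. Its adjusted p was 0.737 in edgeR and 0.0312 in DESeq2, with a range from 0.0312 to 1.

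**Figure D3:**
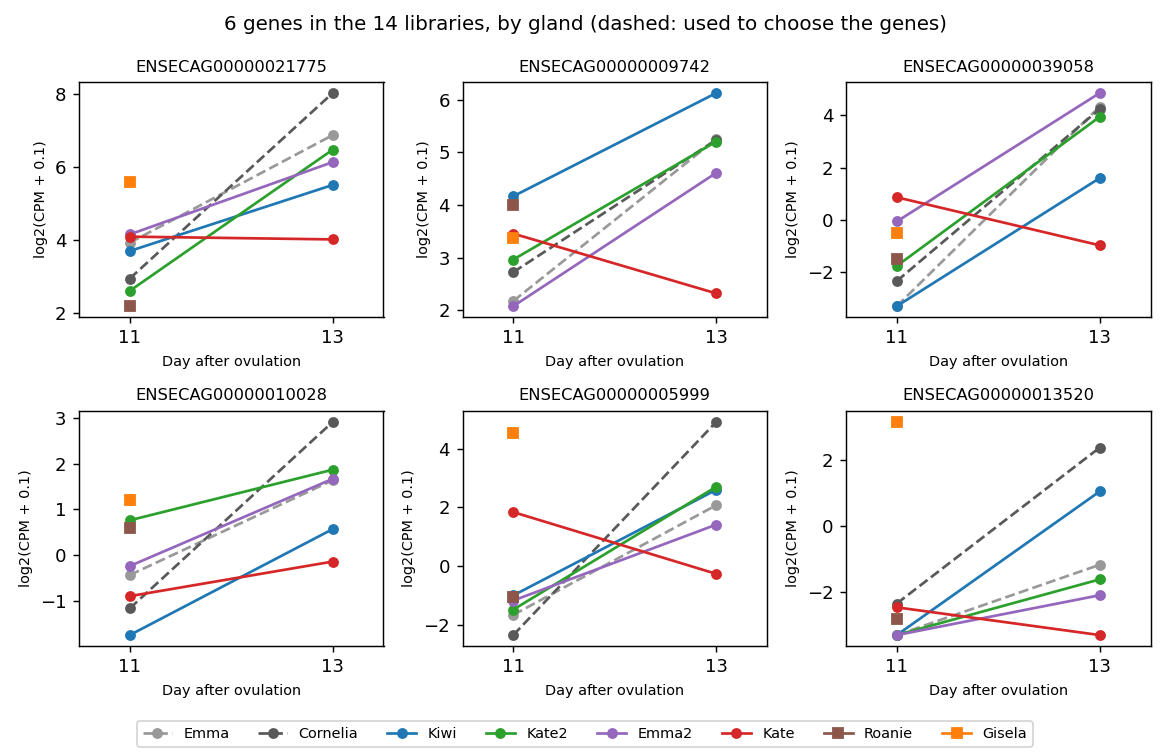
Levels of 6 members as log2(CPM + 0.1) (vertical axes, each with its own range) at day 11 and day 13 after ovulation (horizontal axes); lines join the libraries of a gland, dashed for Emma and Cornelia, and squares are Roanie and Gisela. All lines go up from day 11 to day 13 except that of Kate, which goes down in 5 of the 6 panels, and Gisela is the highest day 11 point in 4 of the 6.

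The gland Kate differed from the other 3 at both ends. At day 11 its sum over the 96 genes, 86.3 CPM, was the second highest of the 6 day 11 libraries not used by the rule, after Gisela. Its day 13 sum, 44.4 CPM, lay within the range of the other day 11 libraries outside Gisela. In this gland 62 members were lower at day 13, against 49.4% of the 14057 genes, and 24 were higher. The other 10 had no counts on either day, so their change could not be read. 35 of the 96 were lower by 1 or more on the log2 scale, against 1.75% of the 14057 genes. 10 were lower by 2 or more, against 0.114%. Genes of low abundance were not read apart for this fall. A drop from 3 counts to 0 passed 1 in ENSECAG00000009034. The median change in Kate, -0.58, was -0.13 with counts under 3 set to 3. It was -1.07 with 50 counts required at day 13 in Emma and Cornelia. Kate is a single gland whose status label differs between the days, so no test between it and the others was made. The labels give no reason for the difference.

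At day 11 the libraries that took no part in the choice were not alike. Their sums over the 96 genes were 39.4 CPM in Kate2, 44.6 CPM in Roanie, 55.9 CPM in Kiwi, 56.1 CPM in Emma2, 86.3 CPM in Kate and 283.6 CPM in Gisela. The 4 non-pregnant libraries lay together, both pregnant libraries were above them, and Gisela lay between Emma2 and Emma at day 13. In contrast the pregnant day 11 libraries of Emma and Cornelia had the lowest sums of all 8 day 11 libraries, which the rule favours. Gisela was the single highest of the 6 in 57 of the 96 genes, against 23.9% of the 14057 genes. Kate was the highest in 18, against 9.85%. Emma2 was the highest in 6, against 22.7%, Kiwi in 5, against 13.7%, Roanie in 3, against 20.6%, and Kate2 in 3, against 9.24%.

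The list did not behave as 1 block in Gisela. Gisela was at least 2 on the log2 scale above the median of the other 5 day 11 libraries in 45 of the 96 genes, against 1.46% of the 14057 genes. It was above by less than 2 in 26 and at or below that median in 25, against 38.3%. Low abundance makes large differences more frequent, and genes of low abundance were not read apart here. The median over the members was 0.0639 to 0.219 CPM in the other 5 libraries, so the 1.46% is not matched for level. 15 of the 96 had 0 counts in Gisela. In 28 members Gisela at day 11 exceeded all 4 day 13 libraries of Kiwi, Kate2, Emma2 and Kate, against 32.1% of the 14057 genes, so this count is near that of genes at large. The 45 members high in Gisela had median changes of 2.16 in Kiwi, 3.20 in Kate2 and 1.92 in Emma2, and of -0.76 in Kate. The 25 members at or below the median in Gisela had 0.94 in Kiwi, 3.02 in Kate2, 2.31 in Emma2 and 0 in Kate. They include the 15 with 0 counts in Gisela, and some, such as ENSECAG00000000278, had 0 counts on both days in Kate. Their 0 in Kate is thus partly a floor of counts. The 26 members between were not summarised. These subsets were made from the same values and carry no test.

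ENSECAG00000013520, chosen after its values were seen, shows the extreme of the members high in Gisela. It held 8.94 CPM there, against 0 CPM at day 11 in Kiwi, Kate2 and Emma2, 0.0417 CPM in Roanie and 0.0797 CPM in Kate. Its day 13 values were 1.98 CPM in Kiwi, 0.225 CPM in Kate2, 0.132 CPM in Emma2 and 0 CPM in Kate. In Emma it went from 0 to 0.342 CPM and in Cornelia from 0.0948 to 5.15 CPM. Gisela was thus the highest of all 14 libraries for this gene. For ENSECAG00000039058 above, in contrast, Gisela lay within the range of the other day 11 libraries.

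**Figure D4:**
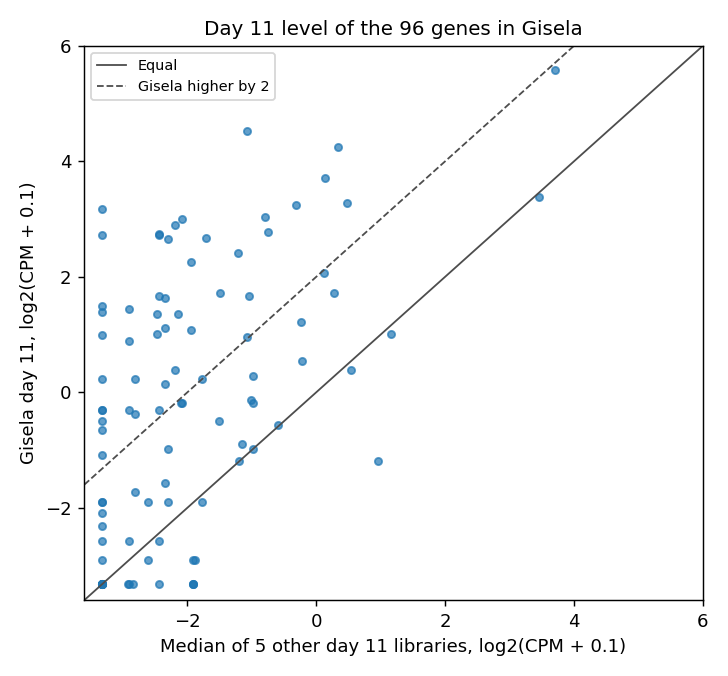
Level of the 96 genes in Gisela day 11 (vertical axis) against the median of the 5 other day 11 libraries not used by the rule (horizontal axis), both as log2(CPM + 0.1). 45 points lie at or above the dashed line, which marks Gisela higher by 2, and 25 lie on or below the solid line of equality.

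Pregnancy status at day 11 was tested in the same 6 libraries, Kate and Gisela against Roanie, Kiwi, Kate2 and Emma2. Status at day 13 has no test here, because both pregnant day 13 libraries chose the genes. Of the 96 genes 40 were tested among 14813, and edgeR called 0, and 0% of all genes, with a smallest adjusted p of 0.563. At an unadjusted p under 0.05, 21 members were higher in the pregnant libraries and 0 lower, beside 1.55% of all genes higher. A gene can pass the filter through Kate and Gisela alone, which favours members that are higher in them. ENSECAG00000021969 did so, with 12 and 23 counts there against 2 to 4 in the non-pregnant libraries. The split by direction is thus partly set by the filter, and the fit was also run without it. With no filter 92 members were in the fit, 1 was called, beside 0.00475% of all genes, and 49 were higher at an unadjusted p under 0.05, beside 2.56% of 21034 genes. DESeq2 called 6 members, all higher, beside 0.128% of all genes called higher, and limma with voom 0. Without Gisela the 21 became 9, beside 0.892% of all genes, and 0 were called. Without Kate, which set Gisela alone against the 4 non-pregnant libraries, it became 45, beside 4.15%, and 10 were called, beside 0.503%. The calls over all genes rose there too, to 78. In that fit the spread of the pregnant group is assumed to equal that of the others.

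ENSECAG00000005999 had the smallest p in this comparison. It stood at 22.9 CPM in Gisela and 3.47 CPM in Kate, against 0.375 CPM in Roanie, 0.397 CPM in Kiwi, 0.256 CPM in Kate2 and 0.341 CPM in Emma2. Both pregnant libraries were above all 4 non-pregnant ones, and Gisela was several times above Kate. The difference was 5.22 ± 0.63 (SE) on the log2 scale, and at lowest 3.44 when Gisela was left out. Its adjusted p was 0.563 in edgeR, with a range from 6.42e-12 to 1 over the alternatives. The pregnant day 11 libraries that chose the genes held 0.214 CPM in Emma and 0.0948 CPM in Cornelia, below all 4 non-pregnant ones. At day 13 it was at 5.95 CPM in Kiwi, 6.40 CPM in Kate2, 2.55 CPM in Emma2 and 0.728 CPM in Kate, and at 4.10 CPM in Emma and 30.0 CPM in Cornelia.

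ENSECAG00000021418 followed, at 7.96 CPM in Gisela and 0.837 CPM in Kate, against 0.167 CPM in Roanie, 0 CPM in Kiwi, 0.0639 CPM in Kate2 and 0.136 CPM in Emma2. Here too both pregnant libraries were above all 4 non-pregnant ones. The difference was 5.53 ± 0.99 (SE) on the log2 scale. Its adjusted p was 1 in edgeR and 0.000202 in DESeq2, with a range from 0.000202 to 1. Of the members tested, 6 had a negative difference. ENSECAG00000024232 was at 1.92 CPM in Gisela and 1.08 CPM in Kate, against 3.05, 2.35, 1.53 and 2.15 CPM in Roanie, Kiwi, Kate2 and Emma2. It differed by -0.58 ± 0.41 (SE) on the log2 scale, edgeR's adjusted p being 1, and Gisela lay inside the non-pregnant range. At day 13 the same gene was at 15.8 CPM in Kate2, 9.91 CPM in Emma2, 3.52 CPM in Kiwi and 1.78 CPM in Kate. Also among these 6, ENSECAG00000000436 differed by -0.09 ± 0.44 (SE), and edgeR's adjusted p was again 1. The most negative of the 6 was ENSECAG00000016560, at -1.49 ± 0.80 (SE), with an unadjusted p of 0.1 in edgeR. It averaged under 1 CPM in these libraries, so it was not among the genes picked for naming.

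Genes outside the list with a like pattern were ranked by Pearson's r, over the 10 libraries not used by the rule, with the list's mean centred log2 CPM. These libraries share mares and glands, so r is a description. Of 12995 genes compared, ENSECAG00000029287 came highest, with r = 0.926. It stood at 10.4 CPM in Gisela, 10.1 CPM in Kiwi day 13, 13.8 CPM in Kate2 day 13 and 8.15 CPM in Emma2 day 13, and at 4.88 to 6.64 CPM in the other 6 libraries. Its change was small beside that of the list, 0.45 in Emma and 1.10 in Cornelia. ENSECAG00000017274, 1 of the 3 genes set aside, came next with r = 0.924.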

How the data were processed

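RNA with poly(A) tails was sequenced from directional libraries, per the labels' protocols. The authors deposited a table of raw counts, with Ensembl genes as features and 14 libraries as columns. Trim Galore, STAR and EquCab3.0 are named in the submitters' processing notes. Their versions, the counter and the annotation were not given in the sources used here, so counts of near-identical or overlapping genes are uncertain.

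Columns were matched to samples by library name, and mare and gland were read from titles and library names. The members and lists were chosen with earlier results of these data known. No 2 libraries were copies (chi-square per degree of freedom at least 21.9). CPM used column sums. Tests used edgeR 4.0.16 in R 4.3.3 with filterByExpr, TMM scaling, the quasi-likelihood F test and Benjamini-Hochberg adjustment over all genes tested. The SE is the log2 fold change divided by the root of F. The same gland on 2 days is a pair by its labels: deviations from day means correlated at 0.30 to 0.57 within a gland and -0.46 to 0.05 between mares, across genes, and at 0.23 and 0.40 between Kate and Kate2, which share a mare. Libraries of 1 mare are not independent, and p-values do not allow for that. Alternatives were DESeq2 1.42.0, limma 3.58.1 with voom, RLE size factors, other filters, other blocks, all 14 libraries and leaving out each gland or library. The fit of all 14 libraries includes those that chose the genes. Scripts were tested on simulated data.

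The genes named were, for each test, up to 2 members in each direction by smallest p among those averaging 1 CPM or more, the 2 most abundant members at pregnant day 13, and those nearest the bound. Lists of cell type markers were not run, because 0 identifiers matched the reference gene table, which is of another assembly.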

Additional observations from a re-analysis of the deposited data

Results flagged for a closer look

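In 36 sets of 4 libraries of a group, single values were compared with the other 3, and 8 stood apart by Dixon's criterion. Chance alone gives about 1 in 20 sets, but that rate does not apply here: 5 of the 8 set Gisela against libraries used in the choice, and 3 of the 8 are of ENSECAG00000013520, chosen after its values were seen. In the pregnant day 11 group Gisela stood apart for 5 members. It held 2.226 CPM of ENSECAG00000010028 against 0.3475 to 0.6415 in the others, and 12.95 CPM of ENSECAG00000014320 against 0.07128 to 1.137. It held 22.87 CPM of ENSECAG00000005999 against 0.09476 to 3.468, 7.961 CPM of ENSECAG00000021418 against 0 to 0.837, and 8.94 CPM of ENSECAG00000013520 against 0 to 0.09476. That group includes Emma and Cornelia, whose low values the rule favours.

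In the non-pregnant day 13 group, Kate2 held 5.876 CPM of ENSECAG00000000436 against 1.659 to 1.937, and Kiwi held 1.982 CPM of ENSECAG00000013520 against 0 to 0.2245. In the non-pregnant day 11 group Roanie held 0.04172 CPM of ENSECAG00000013520, which is 1 count, against 0 in the others.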

How the results depend on the processing

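The number of members called in the 4 glands was 0 in edgeR and 2 with DESeq2. In the 3 non-pregnant glands it was 0, and became 10 with no filter, 34 with DESeq2, 3 with all 14 libraries in the fit, and 0 to 22 leaving out each gland, highest without Kiwi. For status at day 11 it was 0, and became 1 with no filter and 6 with DESeq2. It stayed 0 leaving out each non-pregnant library in turn. Members higher at an unadjusted p under 0.05 numbered 19 in the 4 glands. They became 64 with no filter, 35 with all 14 libraries and 8 to 46 leaving out each gland. Emma and Cornelia, which chose the genes, are in the fits with all 14 libraries. The 3 and the 35 there are thus not independent of the choice. In the 3 glands the 46 became 82 with no filter. For status the 21 became 49 with no filter, 45 without the mare Kate and 9 to 45 leaving out each library. Without the gland block the 4-gland fit called 0 members and gave 22, a count within 1.5 times the 19, and the paired fit changed no call. ENSECAG00000000436 differed by 0.07 with status without Gisela and by 0.17 without Kate2 day 11, in place of -0.09, over a range from -0.28 to 0.17 leaving out each library. The cause of these shifts was not tested.

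The share of members at the bound was 41.7% in Kiwi, 77.1% in Kate2 and 51.0% in Emma2. With a pseudocount of 1 CPM it was 2.08%, 21.9% and 4.17%, and the median change in Kate2 was 1.19. With 50 counts required at day 13, which left 43 genes, it was 60.5%, 88.4% and 62.8%. With a bound of 3, which left 46 genes, it was 54.3%, 93.5% and 80.4%. It was 0% in Kate under each of these. Under the rule of 50 counts, Kate was the highest day 11 library in 30.2% of members and Emma2 in 0%. A further alternative, added after the data were seen, kept the 26 members with a mean of at least 1 CPM over the 6 libraries. In these Gisela was highest in 76.9%, Kate in 7.69% and Emma2 in 0%. That mean includes Gisela, so a member can pass through its Gisela value alone, as ENSECAG00000013520 did. The filter thus favours Gisela, and the 76.9% gives no separate support.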
